A study of Mus musculus with 20 samples.

Results

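The libraries described here are the polyA RNA-seq libraries of mouse eWAT that carry the mark No for contamination with spermatocytes (germ cells in meiosis, found in the testis). eWAT is the white fat pad that lies on the epididymis. They were chosen by that label alone, and they are 10 of the 20 libraries of the series: Control replicates 3, 6 and 7, and random food restriction (below, restricted) replicates 4 to 10. Control mice received a control diet, and restricted mice were put on a regime of fasting at intervals that also cut calories by 5%. The title of the series links food insecurity to adiposity, and the question here is which transcripts of the fat pad differed between the diets. The labels name no genetic change for either group. Strain, sex, age, diet length and time of day are not given in the sources used. The labels do not name the animal behind a library, and p-values measure only the spread between samples, some of which may be technical.

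A white fat pad is made of lipid-filled adipocytes and of a stroma of progenitor cells, blood and lymphatic vessels, macrophages, mast cells and lymphocytes. Adipocytes take up glucose and fatty acids, make fatty acids from glucose when food is plentiful and release them in fasting. They also hold a circadian clock, in which the activators Arntl and Clock drive the genes of their own repressors (Per, Cry, Ciart, Bhlhe41) and of output factors such as Dbp, Tef and Hlf, through E-box elements. The nuclear receptors Nr1d1 and Nr1d2 and the ROR receptors compete for ROR elements in the Arntl gene. Feeding and fasting are known to set the phase of such clocks in peripheral tissues.

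Some clock gene promoters are shown because clock genes were among the largest changes below. The windows run from 250 bases before to 50 bases after an annotated start, 5′ to 3′ on the strand of the gene, and come from RefSeq (GRCm38.p6). Capitals mark the E-box CACGTG, the D-box TTANNTAA, the site of Dbp, Tef and Hlf, and the core of the ROR element, NNAGGTCA.
Ciart, chr3:95882179-95882478, minus strand, 3 E-boxes: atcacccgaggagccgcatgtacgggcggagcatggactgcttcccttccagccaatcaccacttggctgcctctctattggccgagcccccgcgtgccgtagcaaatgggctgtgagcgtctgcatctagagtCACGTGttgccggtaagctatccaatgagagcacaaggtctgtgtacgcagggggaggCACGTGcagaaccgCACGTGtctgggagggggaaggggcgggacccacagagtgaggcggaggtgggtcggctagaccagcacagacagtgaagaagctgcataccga
Bhlhe41, chr6:145865371-145865670, minus strand, 1 E-box: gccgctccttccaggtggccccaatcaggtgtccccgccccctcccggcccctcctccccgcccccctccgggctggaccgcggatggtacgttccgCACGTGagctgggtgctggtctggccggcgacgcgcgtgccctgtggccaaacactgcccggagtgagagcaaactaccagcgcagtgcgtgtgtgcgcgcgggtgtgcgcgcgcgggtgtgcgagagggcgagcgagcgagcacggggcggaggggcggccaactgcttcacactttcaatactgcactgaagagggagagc
Tef, chr15:81802423-81802722, plus strand, 1 D-box and 1 E-box: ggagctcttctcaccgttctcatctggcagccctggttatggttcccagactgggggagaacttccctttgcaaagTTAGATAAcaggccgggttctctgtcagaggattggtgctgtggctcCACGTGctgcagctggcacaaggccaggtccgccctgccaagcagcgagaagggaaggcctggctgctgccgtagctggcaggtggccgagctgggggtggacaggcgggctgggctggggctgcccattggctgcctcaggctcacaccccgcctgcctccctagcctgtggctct
Arntl, chr7:113207261-113207560, plus strand, 1 ROR core: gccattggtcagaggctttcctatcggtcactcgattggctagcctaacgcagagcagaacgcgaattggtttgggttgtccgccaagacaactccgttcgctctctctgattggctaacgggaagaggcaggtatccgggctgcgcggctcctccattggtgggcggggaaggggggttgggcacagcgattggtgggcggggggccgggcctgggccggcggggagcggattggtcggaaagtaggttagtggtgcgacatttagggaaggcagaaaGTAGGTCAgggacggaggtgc
Both strands were searched in windows of 300 bases, with no overlap between the motifs in these 4 windows. Of 32851 promoter windows of all genes, 7.15% held the E-box, 6.0% the D-box and 16.2% the ROR core. Windows were found for 21 of the listed clock genes and output factors. They had 31 windows in all, of which 6 held the E-box, 2 the D-box and 6 the ROR core. By gene, the E-box was in 5 (Bhlhe41, Ciart, Cry1, Per1 and Tef), the D-box in 2 (Per3 and Tef) and the ROR core in 6 (Arntl, Clock, Nampt, Nfil3, Nr1d2 and Per1). Windows with a motif were chosen for printing. The other window of Arntl, at a nearby start, held no ROR core, and the window of Hlf held none of the 3 motifs. These matches describe only letters in the windows.

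The 10 libraries held 14306528 to 44061508 counts, the fewest in Control 3. RNA integrity numbers were 7.9 in Control 3 and 7.7 in Control 6. The 5 restricted libraries that have one, replicates 4, 5, 6, 8 and 9, had 7.1, 7, 7.2, 7.9 and 7. Only Restricted 8 thus reached the controls, and the others lay below both. Fat cell markers were plentiful in each library: the summed level of 16 adipocyte genes was 72566, 74703 and 82627 CPM (counts per 1000000 counts of tested genes, scaled by TMM) in Controls 3, 6 and 7 and 73930 to 87709.5 (median 75641) CPM in the restricted libraries. The mark No did not mean that other tissues were absent. Skeletal muscle genes summed to 2179.9, 113 and 127 CPM in Controls 3, 6 and 7 and to 128 to 224 (median 155) CPM in the restricted libraries, so Control 3 stood apart, with Restricted 10 the next. Germ cell genes summed to 66.5, 118 and 78.5 CPM in the controls and to 65.3 to 75.5 (median 66.8) CPM in the restricted libraries. Prm2, a protamine of sperm heads, was at 0, 11.7 and 2.28 CPM in Controls 3, 6 and 7 and at 0.121 CPM or less in each restricted library. In libraries marked Yes it ranged from 0.0983 to 61.5 CPM without TMM scaling with a median of 2.18, and Controls 6 and 7, at 12.3 and 2.35 on that scale, lay above that median. Genes of the epididymal epithelium summed to 61.96, 183 and 69.2 CPM in the controls against 20.6 to 53.96 (median 36.04) CPM, with Crisp1 at 0.538, 35.3 and 0 CPM. Foxj1, the regulator of motile cilia, did follow the label: it was at 1.6 CPM or less without TMM scaling in each library marked No and at 7.74 to 48.9 in those marked Yes.

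**Figure D1:**
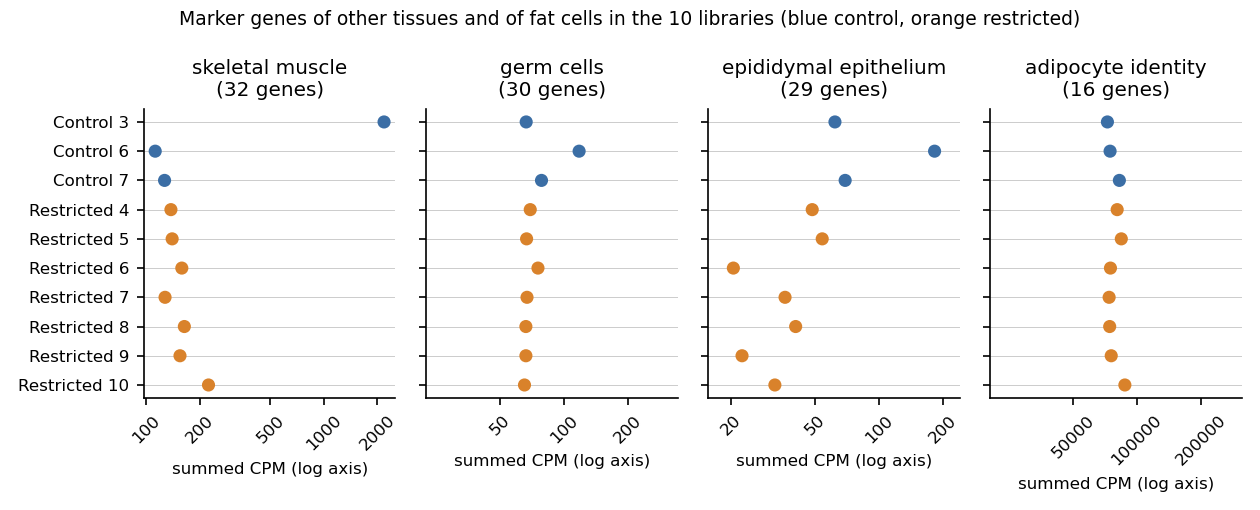
Summed CPM (log axis) of marker genes of skeletal muscle, germ cells, epididymal epithelium and adipocytes in each of the 10 libraries; blue points are control and orange points restricted libraries. Control 3 stands apart for muscle at 2180.0 CPM, Control 6 for germ cells and epididymal epithelium, and the adipocyte sums lie close together.

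More genes fell than rose after restriction. Lower genes included 6 of 26 macrophage, 5 of 11 mast cell, 3 of 10 class II, 3 of 10 lymphatic and 4 of 23 progenitor genes. Of these, Tpsab1 (mast cells) and Prox1 (lymphatic) passed the count filter only through the controls, and their calls are not read as results. Higher genes included 7 of 8 protein genes of the mitochondrial genome, the clock repressors Ciart, Bhlhe41 and Per2, the desaturase Scd1 and the glycogen regulator Ppp1r3b. Coordinates beside gene names are those of the deposited table, 1-based, on GRCm38 per the submitters' processing notes, and span the whole gene. Of 16584 genes tested, 400 (2.41%) passed an adjusted p of 0.05 (edgeR, quasi-likelihood test, Benjamini-Hochberg), with 130 higher (0.784%) and 270 lower (1.63%) under restriction. Changes of at least 2-fold were made by 20 of the higher and 62 of the lower genes. The median log2 fold change was 0.55 among the higher genes, −0.65 among the lower and 0.00 over all tested genes. Control and restricted values did not overlap for 129 of the 130 and 242 of the 270; over all tested genes 731 (4.41%) lay wholly above and 755 (4.55%) wholly below the controls. On the first principal component (26% of the variance) the controls lay at 16.1 to 20.6 and the restricted libraries at −18.4 to −0.48.

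The small control group limits these calls. Without Control 3, 284 of 17076 genes passed (1.66%), 94 higher (0.55%) and 190 lower (1.11%), and 186 of the 400 were among them. Without Control 6, 146 genes passed, and without Control 7, 52 did. Controls 6 and 7 also carried the germ cell transcripts. With an index of germ cell genes as a term in the model 53 genes passed, 2 higher and 51 lower, and 29 of them were among the 400. Skeletal muscle genes, which were high in Control 3, made up 18 of the 53. None was in the lists of macrophages, class II, lymphatic, mitochondrial or core clock genes, and 1 was in the mast cell list. Of the lists described below, those of T and natural killer cells, dendritic cells, lipid-associated macrophages, cytokines, blood endothelium, smooth muscle and pericytes, clock output factors, fatty acid synthesis and cholesterol synthesis had no call left without Control 6 and none without Control 7. The same held for the lists of the FGF pathway, the IGF axis, insulin signalling, the cell cycle, heat shock, thermogenic adipocytes and nuclear oxidative phosphorylation. Macrophage genes had 5 calls without Control 6, lymphatic endothelium 2, mitochondrial genes 3 and class II genes 1; without Control 7 these 4 lists had none. Core clock genes had 1 call without Control 6 and 2 without Control 7, mast cell genes 3 and 1, progenitor genes 4 and 1, matrix proteases 3 and 1, BMP and activin genes 3 and 1, glycogen genes 2 and 2, and acute phase genes 1 and 1. Interstitial matrix genes had 3 and 0, basement membrane 2 and 0, complement 3 and 0, and adipokines, fatty acid oxidation, lipolysis and lysosomal genes 1 and 0 each. In what follows, control values are given in the order Control 3, 6, 7, restricted values as lowest, highest and median of 7, and fold changes as log2 of restricted over control ± SE. Adjusted p-values without Control 3 stand beside the calls that its omission ended, and those without Control 6 and Control 7 at the end of each paragraph.

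In 21 genes, 7 higher and 14 lower, the call held without each single library in turn; the other 379 calls were lost without at least 1 library. The 7 higher were Mal2, Pth1r, Lctl, Ppp1r3b, Orm3, Mme and Ap3s1. The 14 lower were Arntl, Mcpt4, Bmper, Ifi27l2a, Fgl2, Ace, Adam8, Cd300lb, Scara5, Egfr, Sned1, Sgsm2, Plpp3 and Mmp2. Mal2, a membrane protein of vesicle transport (ENSMUSG00000024479.3, chromosome 15, 54571192 to 54602847), was at 1.48, 0.9604 and 0.812 CPM in the controls and 3.06 to 5.24 (median 3.61) CPM in the restricted libraries, a change of 1.88 ± 0.26 (adjusted p = 0.0065). Pth1r, the receptor of parathyroid hormone (ENSMUSG00000032492.14, chromosome 9, 110722085 to 110747122), was at 16.3, 12.6 and 8.24 CPM against 24.2 to 47.2 (median 32.6) CPM, a change of 1.46 ± 0.22 (adjusted p = 0.00944). Both lay above every control in each restricted library. Lctl, a member of the klotho family (ENSMUSG00000032401.15, chromosome 9, 64117147 to 64138105), was at 18.03, 13.8 and 11.3 CPM against 30.7 to 53.7 (median 36.9) CPM and rose by 1.44 ± 0.18. Mme, a membrane peptidase, was at 44.5, 41.9 and 38.5 CPM against 62.4 to 75.1 (median 71.7) CPM, and rose by 0.76 ± 0.08. Among the lower genes of this set, Ace, the angiotensin-converting peptidase, was at 159, 196 and 232 CPM against 88.4 to 135 (median 96.6) CPM. Scara5, a ferritin receptor of stromal cells, was at 216, 186 and 198 CPM against 97.2 to 136 (median 108) CPM. Neither gene's groups overlapped, and the log2 fold changes were −0.93 ± 0.13 and −0.84 ± 0.09. Fgl2, a fibrinogen-like protein of macrophages and T cells, changed by −1.005 ± 0.13, and Cd300lb, an activating receptor of myeloid cells, by −0.86 ± 0.13.

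**Figure D2:**
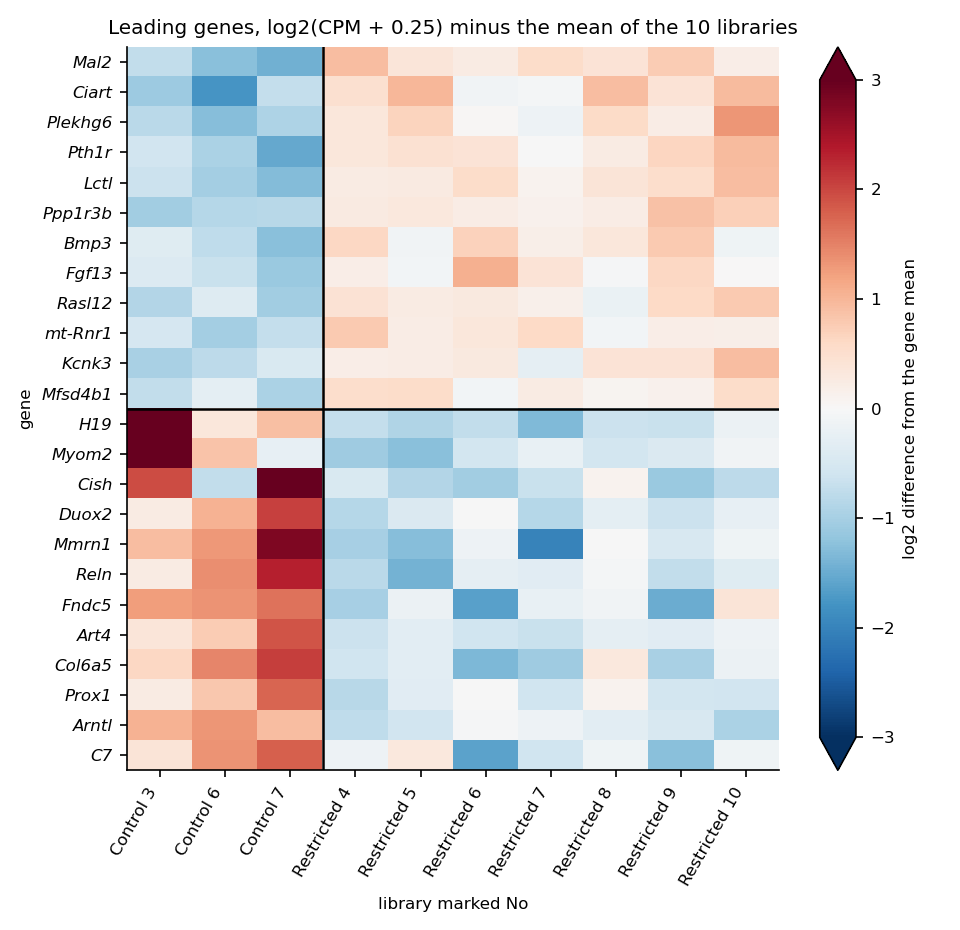
Level of 12 higher and 12 lower called genes in the 10 libraries, as log2(CPM + 0.25) minus the gene's mean over the libraries. They have the largest fold changes among genes of at least 1 CPM in a diet that kept their sign without each library. Genes without a proper name and those of the muscle, germ cell, gonad and epididymis lists are left out. The lines part control from restricted libraries and higher from lower genes. The calls of H19, Duox2 and Prox1 are not read as results. Control 3 gives the darkest cells of H19 and Myom2, and Control 7 those of Cish, Mmrn1 and Reln.

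Of 17 core clock genes tested, 3 rose and 1 fell, and of 9 clock output factors 2 rose and none fell. The medians were 0.31 and 0.44, against 0.00 over all genes. Arntl, the activator of the clock (ENSMUSG00000055116.8, chromosome 7, 113207465 to 113314126), was at 4.24, 5.26 and 3.87 CPM in the controls and 0.887 to 1.87 (median 1.304) CPM in the restricted libraries. Every restricted library lay below every control, and the change was −1.70 ± 0.23 (adjusted p = 0.0065). Ciart, a repressor of Arntl and Clock (ENSMUSG00000038550.10, chromosome 3, 95878503 to 95882231), went the other way, from 6.05, 3.64 and 7.85 CPM to 12.1 to 26.3 (median 18.5) CPM. Its lowest restricted library lay above the highest control, with a change of 1.73 ± 0.30 (adjusted p = 0.0163). Its promoter, shown above, held 3 E-boxes. Bhlhe41, a repressor that binds E-boxes, was at 24.9, 19.9 and 25.7 CPM against 31.2 to 44.9 (median 37.1) CPM and rose by 0.66 ± 0.13. Per2, a further repressor, was at 46.3, 38.5 and 53.4 CPM against 51.8 to 85.9 (median 72.6) CPM and rose by 0.61 ± 0.15. The lowest restricted library of Per2 lay below the highest control, and its adjusted p without Control 3 was 0.107. Hlf rose by 0.81 ± 0.17, from 23.3, 16.1 and 18.4 CPM to 25.3 to 44.9 (median 32.1) CPM. Tef, of the same family, rose by 0.44 ± 0.10 and had an adjusted p of 0.0651 without Control 3. Without Control 7 Arntl and Ciart still passed, while Bhlhe41 (0.0718), Per2 (0.104), Hlf (0.151) and Tef (0.172) had the adjusted p-values given here. Without Control 6 only Arntl of these 6 passed, and the adjusted p-values were 0.0552 for Ciart, 0.0951 for Bhlhe41, 0.209 for Per2, 0.126 for Hlf and 0.151 for Tef.

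The other clock genes did not pass. Cry1, a repressor, was at 6.79, 5.96 and 7.58 CPM against 7.82 to 15.2 (median 10.8) CPM (0.75 ± 0.21, adjusted p = 0.0793), with no overlap between the groups. Per1, which holds an E-box, had 82.9, 83.1 and 115 CPM against 91.6 to 189.6 (median 153) CPM (0.65 ± 0.20, adjusted p = 0.107). Dbp, an output factor with strong daily swings, had 126, 124 and 118 CPM against 120.1 to 237 (median 173) CPM (0.59 ± 0.18, adjusted p = 0.0945). In these 3 genes the middle restricted library lay above all controls. Clock (−0.44 ± 0.16, adjusted p = 0.15) and its relative Npas2 (−1.44 ± 0.61, adjusted p = 0.224) had lower values, like Arntl. Nr1d1, a receptor that represses Arntl, had 276, 294 and 264 CPM against 186 to 293 (median 243) CPM (−0.21 ± 0.12, adjusted p = 0.375), and Cry2 differed by 0.02 ± 0.09. Nr1d2, the relative of Nr1d1, went the other way (0.34 ± 0.09, adjusted p = 0.0678). Per3 had higher values too (0.31 ± 0.09, adjusted p = 0.098), with no overlap between the groups. Time of sampling is not in the labels, so a difference of level and one of phase cannot be told apart.

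**Figure D3:**
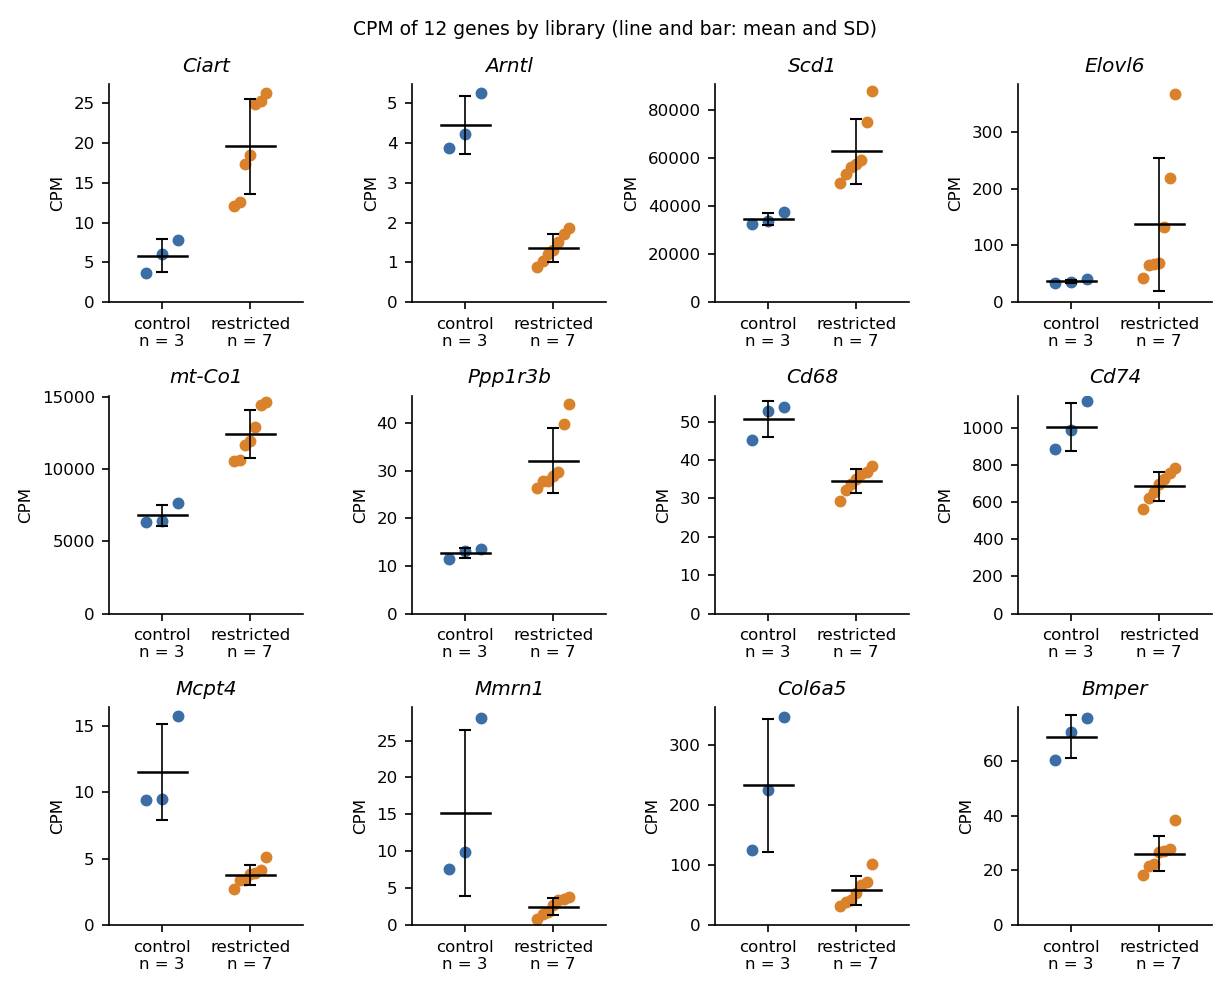
CPM of 12 genes in the 3 control and 7 restricted libraries; each point is a library, and the line and bar are the mean and SD. The groups do not overlap in any of the 12, and in Elovl6 the restricted libraries spread from 41.9 to 367 CPM.

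Transcripts of the mitochondrial genome were higher after restriction. Of 13 protein genes, 8 passed the filter on low counts, and 7 of the 8 rose (mt-Nd1, mt-Nd2, mt-Nd4, mt-Nd5, mt-Nd6, mt-Co1 and mt-Cytb), with a median of 0.77. The exception among the 8 was mt-Nd3, at 1.41, 1.42 and 1.51 CPM in the controls. The summed level was 20161, 17826 and 17190.1 CPM in the controls and 26893 to 37899 (median 30369) CPM in the restricted libraries. mt-Co1, a subunit of the terminal oxidase, had 7639, 6376 and 6355 CPM against 10558 to 14625 (median 11945) CPM, a change of 0.87 ± 0.14 (adjusted p = 0.0103). mt-Nd4, a subunit of the first complex, had 1787, 1663 and 1534 CPM against 2569 to 3526 (median 2825) CPM and rose by 0.83 ± 0.13. No restricted library overlapped the controls in either gene. The ribosomal RNA mt-Rnr1 rose by 1.08 ± 0.17 and mt-Rnr2 by 0.95 ± 0.19. Without Control 3, 5 of the 8 passed, and mt-Nd1 and mt-Nd2 had adjusted p-values of 0.0532 and 0.0604. Mitochondrial transcripts have near-identical nuclear copies, so their counts can be split; mt-Co2, mt-Co3 and mt-Atp6 had 0.303 CPM or less in each library. The part of polyA selection and of the RNA integrity in these values was not tested. Among nuclear genes of oxidative phosphorylation 1 of 50 passed, Uqcrb, which rose by 0.41 ± 0.08 (adjusted p without Control 3 = 0.0776). The median was 0.14, smaller than that of the mitochondrial genes, and 41 of the 50 had a fold change above 0. Of the 50, 9 had an unadjusted p under 0.05, and DESeq2 called 2. Leaving out Control 7 gave adjusted p-values of 0.0637 (mt-Co1), 0.0637 (mt-Nd4), 0.0619 (mt-Rnr1), 0.101 (mt-Rnr2) and 0.106 (Uqcrb), with folds close to those above. It also ended the calls of mt-Nd1 (0.146), mt-Nd2 (0.126), mt-Nd5 (0.172), mt-Nd6 (0.0637) and mt-Cytb (0.0899). Leaving out Control 6 ended the calls of mt-Nd1 (0.124), mt-Nd2 (0.0951), mt-Nd5 (0.0893), mt-Cytb (0.0552), mt-Rnr2 (0.1) and Uqcrb (0.1).

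Among enzymes of fatty acid synthesis, Scd1 alone passed, 1 of 23 tested. The median of the list was 0.41, and 21 of the 23 had a fold change above 0. Scd1, the desaturase that makes oleate from stearate (ENSMUSG00000037071.3, chromosome 19, 44394455 to 44407879), was the gene with the most counts in each library. It had 33796, 32465 and 37383 CPM in the controls and 49622 to 87890.5 (median 57571) CPM in the restricted libraries, a rise of 0.86 ± 0.18 (adjusted p = 0.0285) without overlap, and an adjusted p of 0.0686 without Control 3. The Scd genes are near-identical in part, so counts can be split among them. Elovl6, the elongase of palmitate, had 34.6, 40.3 and 34.5 CPM against 41.9 to 367 (median 68.3) CPM (1.91 ± 0.61, adjusted p = 0.113). Each restricted library lay above each control, and the highest restricted library had 367 CPM where the lowest had 41.9. Fasn, the synthase of palmitate, had 5205, 8302 and 7181 CPM against 5358 to 21819 (median 8544) CPM (0.54 ± 0.37, adjusted p = 0.483). Acaca (0.81 ± 0.33, adjusted p = 0.207), Acly (0.36 ± 0.36, adjusted p = 0.654) and their regulator Srebf1 (0.07 ± 0.19, adjusted p = 0.888) also overlapped between the diets. Restricted 10 was the highest library for Scd1, Elovl6, Fasn, Acaca, Acly and Srebf1. The adjusted p of Scd1 was 0.118 without Control 6 and 0.111 without Control 7.

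Cholesterol synthesis had 2 of 25 genes higher and none lower, with a median of 0.25. Fdft1, which makes squalene, had 77.9, 72.9 and 70.2 CPM against 93.3 to 155 (median 109) CPM and rose by 0.61 ± 0.14. Insig2, which holds the sterol sensor in the endoplasmic reticulum, had 65.3, 53.7 and 62.9 CPM against 75.1 to 83.8 (median 77.8) CPM and rose by 0.37 ± 0.07. Both were without overlap; the adjusted p of Fdft1 without Control 3 was 0.0795. Triglyceride synthesis (0 of 17 passed), fatty acid uptake (0 of 21), lipid droplet proteins (0 of 13) and glycolysis (0 of 27) had medians of 0.03, 0.08, −0.06 and 0.09. In the same order 2, 7, 1 and 4 genes had an unadjusted p under 0.05, and DESeq2 called 2, 3, 1 and 1. Cpt1a, which carries fatty acids into mitochondria, fell, 1 of 24 genes of fatty acid oxidation. It had 133, 126 and 139 CPM against 95.1 to 112 (median 98.6) CPM, a change of −0.39 ± 0.07 without overlap (adjusted p = 0.017). The rest of that list did not follow Cpt1a: its median was 0.10, and 20 of the 24 genes had a fold change above 0. The calls of Fdft1 and Insig2 were lost without Control 6 (adjusted p = 0.149 and 0.126) and without Control 7 (0.209 and 0.101), and that of Cpt1a without Control 7 (0.106).

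Glycogen metabolism had 3 of 17 genes higher and 1 lower. Ppp1r3b, which brings the phosphatase that activates glycogen synthase to glycogen (ENSMUSG00000046794.9, chromosome 8, 35375739 to 35388139), had 11.4, 13.1 and 13.5 CPM against 26.4 to 44.1 (median 28.99) CPM. The controls lay close together, every restricted library was above them, and the rise was 1.34 ± 0.17 (adjusted p = 0.00521). Gyg, the primer of glycogen, rose by 0.43 ± 0.09 and Pygl, the liver form of glycogen phosphorylase, by 0.59 ± 0.14. Their adjusted p-values without Control 3 were 0.0782 and 0.0986. The gene that fell was Pygm, the muscle phosphorylase, at 67.8, 6.12 and 5.45 CPM against 4.07 to 7.02 (median 4.97) CPM; without Control 3 its change was −0.17 (adjusted p = 0.721). Ppp1r3b passed without each control, and Gyg and Pygl had adjusted p-values of 0.107 and 0.154 without Control 6 and 0.162 and 0.187 without Control 7.

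Adipocyte identity genes did not pass in any of 16 cases (median −0.01). Of them 6 had an unadjusted p under 0.05 and DESeq2 called 3; over all genes tested 3100 had such a p. Adipoq, the hormone adiponectin, had 3997, 3483 and 3810.3 CPM against 4059.8 to 5259 (median 4359) CPM (0.28 ± 0.10, adjusted p = 0.167). Lep, the hormone leptin, had 1119, 1060.5 and 931 CPM against 1040.1 to 1977 (median 1325) CPM (0.51 ± 0.19, adjusted p = 0.167), and the groups overlapped. Pparg, the master regulator of adipocytes, differed by 0.26 ± 0.11 and Pck1, of glyceroneogenesis, by 0.03 ± 0.19. Ucp1, the uncoupler of brown fat, had 0.0887 CPM or less in each library and was not tested. Kcnk3, a potassium channel of thermogenic adipocytes, rose by 1.08 ± 0.20 (1 of 15 thermogenic genes; adjusted p without Control 3 = 0.0627). Among secreted products, Agt, angiotensinogen, fell by 0.47 ± 0.09, from 493.4, 419 and 499.5 CPM to 295 to 382 (median 348) CPM, with an adjusted p of 0.0795 without Control 3. Fndc5, the precursor of irisin, fell by 2.11 ± 0.43, from 3.97, 4.296 and 5.26 CPM to 0.324 to 2.08 (median 1.29) CPM. The acute phase genes Orm3 (17.9, 14.1 and 13.3 CPM against 25.1 to 34.3 with a median of 31.7 CPM, 1.04 ± 0.12) and Orm1 (0.83 ± 0.19) rose, 2 of 10 tested. Orm1 had an adjusted p of 0.109 without Control 3, and reads of the Orm copies can be split. Only Orm3 of the genes called here passed without Control 7, where the adjusted p-values were 0.0627 for Kcnk3, 0.164 for Agt, 0.146 for Fndc5 and 0.122 for Orm1. Without Control 6 those of Kcnk3, Fndc5 and Orm1 were 0.0805, 0.0731 and 0.125.

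Signalling genes moved in both directions. Of 29 genes of the BMP and activin pathway, 2 rose and 4 fell. Bmp3, a ligand that restrains BMP signals, had 24.7, 18.6 and 12.99 CPM against 28.6 to 54.9 (median 40.1) CPM and rose by 1.15 ± 0.24. Inhbb, the chain of activin B, had 54.7, 56.4 and 43.4 CPM against 65.6 to 103 (median 79.5) CPM and rose by 0.66 ± 0.13. Both ligands lay above the controls in each restricted library. Bmper, a secreted binder of BMPs (ENSMUSG00000031963.8, chromosome 9, 23223076 to 23485200), had 60.5, 70.5 and 75.6 CPM against 18.2 to 38.4 (median 26.6) CPM, a change of −1.40 ± 0.17 (adjusted p = 0.00457). The ligand Bmp2 (−0.97 ± 0.22), the target Id2 (−0.69 ± 0.14) and Gdf10 (−0.64 ± 0.15) fell too, with adjusted p-values without Control 3 of 0.0636, 0.0538 and 0.0404. Fgf13, an intracellular FGF, rose by 1.12 ± 0.26 and the receptor Fgfr2 fell by 0.55 ± 0.13, 2 of 15 genes of that family; Fgf13 had an adjusted p of 0.057 without Control 3. Egfr, the EGF receptor, had 117, 100.2 and 117 CPM against 55.4 to 75.3 (median 66.8) CPM and fell by 0.73 ± 0.09 (adjusted p = 0.00521). Irs1, the docking protein of the insulin receptor, fell by 0.49 ± 0.11 (1 of 19 genes of insulin signalling; adjusted p without Control 3 = 0.0576). Pappa, the protease that frees IGF from its binding proteins, fell by 1.47 ± 0.27 (1 of 16 of the IGF axis), from 2.02, 2.98 and 2.13 CPM to 0.557 to 1.21 (median 0.961) CPM. Bmper and Egfr passed without each control. With Control 7 left out the adjusted p-values were 0.158 (Bmp3), 0.131 (Inhbb), 0.156 (Bmp2), 0.172 (Id2), 0.224 (Fgf13), 0.271 (Fgfr2), 0.224 (Irs1) and 0.0726 (Pappa), and the change of Gdf10 was −0.37 (0.301). With Control 6 left out they were 0.0951 (Bmp3), 0.149 (Bmp2), 0.074 (Gdf10), 0.133 (Fgf13), 0.108 (Fgfr2), 0.141 (Irs1) and 0.0964 (Pappa).

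Macrophage transcripts were lower after restriction: 6 of 26 genes fell and none rose, and the median was −0.46. In bulk tissue, fewer cells of a type and less RNA per cell cannot be told apart. Cd68, a lysosomal protein of macrophages, had 45.3, 53.9 and 52.8 CPM against 29.2 to 38.3 (median 35.1) CPM, a change of −0.55 ± 0.09 (adjusted p = 0.0114). Adgre1, which encodes the F4/80 antigen, had 46.2, 43.7 and 51.01 CPM against 27.1 to 35.9 (median 31.2) CPM (−0.55 ± 0.09). In both genes every restricted library was below every control. The scavenging receptors Mrc1 (−0.62 ± 0.12) and Clec10a (−0.61 ± 0.12), the growth factor receptor Csf1r (−0.58 ± 0.12) and the integrin Itgax (−0.96 ± 0.20) also fell. Mrc1 and Csf1r had adjusted p-values of 0.057 and 0.0877 without Control 3, and 4 of 26 passed then. Il34, the other ligand of the Csf1r receptor, went the opposite way, from 27.6, 24.8 and 23.6 CPM to 31.6 to 42.3 (median 36.9) CPM (0.54 ± 0.10). Of 13 genes of lipid-associated macrophages, 1 rose, the cathepsin Ctsl (0.54 ± 0.12), and the median was 0.05. That list summed to 19370.5, 22523 and 23092 CPM in the controls, where the macrophage list summed to 2576, 2014 and 2505 CPM. Which cells hold these abundant transcripts was not tested, so the median is not a measure of such macrophages alone. Ctsc and Ctsh, cathepsins rich in immune cells, changed by −0.44 ± 0.08 and −0.44 ± 0.09; Ctsh had an adjusted p of 0.0583 without Control 3. None of the genes called here passed without Control 7: the adjusted p-values were 0.0689 for Cd68, 0.089 for Adgre1, 0.106 for Mrc1, 0.141 for Clec10a, 0.186 for Csf1r and 0.0689 for Itgax, and 0.122, 0.202, 0.101 and 0.165 for Il34, Ctsl, Ctsc and Ctsh. Without Control 6 Itgax changed by −0.60 (adjusted p = 0.145), and Il34, Ctsl and Ctsc had adjusted p-values of 0.0725, 0.152 and 0.0524.

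Class II antigen presentation had 3 of 10 genes lower and none higher, with a median of −0.52, and all 10 had a fold change below 0. Cd74, the invariant chain, had 993, 886 and 1145 CPM against 562 to 784 (median 702) CPM (−0.55 ± 0.11). H2-Ab1, a class II chain, changed by −0.49 ± 0.12 and Ciita, the activator of these genes, by −0.70 ± 0.16. None overlapped between the diets, but without Control 3 none of the 10 passed, with adjusted p-values of 0.0532, 0.116 and 0.0791 for these genes. Cd209a, a lectin of dendritic cells, fell by 0.96 ± 0.19, 1 of 12 genes of that list. Nor did they pass without Control 7, with 0.164 for Cd74, 0.21 for H2-Ab1, 0.187 for Ciita and 0.155 for Cd209a, and without Control 6 only Cd74 did; there the adjusted p-values were 0.0844, 0.141 and 0.067 for the other three in that order.

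Of 11 mast cell genes tested 5 fell and none rose, and the median was −1.08. Mcpt4, a chymase of connective tissue mast cells (ENSMUSG00000061068.7, chromosome 14, 56059629 to 56062313), had 9.42, 9.503 and 15.7 CPM against 2.70 to 5.15 (median 3.82) CPM, a change of −1.62 ± 0.20 (adjusted p = 0.0051). Cma1, a chymase, had 10.8, 6.42 and 14.3 CPM against 2.75 to 5.54 (median 3.53) CPM (−1.46 ± 0.24), and the tryptase Tpsb2 had 11.97, 9.86 and 20.1 CPM against 3.51 to 6.51 (median 5.15) CPM (−1.39 ± 0.22). No restricted library reached a control in these genes. Cpa3, their carboxypeptidase, changed by −0.85 ± 0.16 and Tpsab1, a further tryptase, by −1.64 ± 0.39 (adjusted p without Control 3 = 0.15). Tpsab1 had 0.173 to 0.600 (median 0.288) CPM in the restricted libraries, and most of them lay under the level of the count filter (0.396 CPM). It passed that filter only through the controls, so its call is not read as a result. The proteases have near-identical relatives, so counts can be split. Mcpt4 passed without each control. In the absence of Control 7 the adjusted p-values were 0.101 for Cma1, 0.0718 for Tpsb2, 0.147 for Cpa3 and 0.207 for Tpsab1, and in the absence of Control 6 those of Cpa3 and Tpsab1 were 0.054 and 0.074.

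T and natural killer cells had 3 of 25 genes lower, the interleukin receptors Il2rb (−1.07 ± 0.23) and Il1rl1 (−0.74 ± 0.14) and the chemokine Ccl5 (−0.84 ± 0.20), with a median of −0.48; Il1rl1 had an adjusted p of 0.0547 without Control 3. No B cell gene passed of 16 (median −0.42; 3 at an unadjusted p under 0.05, none with DESeq2), and no neutrophil gene of 6 (1 and 1). Ifi27l2a, an interferon-induced gene, had 1425, 1294 and 1787 CPM against 569 to 1001 (median 635) CPM and fell by 1.15 ± 0.16 (adjusted p = 0.0065). It was alone among 23 genes of the interferon response, whose median was −0.01. Of 20 complement genes, complement C7, of the membrane attack complex, fell by 1.69 ± 0.34, and Cd59a, which shields cells from that complex, rose by 0.35 ± 0.08. C7 had 141, 276 and 375 CPM against 35.4 to 133 (median 95.7) CPM, and Cd59a had an adjusted p of 0.0712 without Control 3. Ifi27l2a passed without each control. The adjusted p-values without Control 7 were 0.201 (Il2rb), 0.0718 (Il1rl1), 0.201 (Ccl5), 0.181 (complement C7) and 0.236 (Cd59a), and without Control 6 they were 0.135, 0.0552, 0.231, 0.0807 and 0.158 in the same order.

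Lymphatic endothelium had 3 of 10 genes lower, with a median of −0.58. Prox1, the regulator of lymphatic fate, had 0.740, 1.21 and 2.55 CPM against 0.217 to 0.643 (median 0.3204) CPM (−1.93 ± 0.40). Most restricted libraries lay under the level of the count filter (0.396 CPM) for Prox1. It passed that filter only through the controls, so its call is not read as a result. Mmrn1, a protein of lymphatic walls, had 7.602, 9.91 and 28.1 CPM against 0.771 to 3.83 (median 2.70) CPM (−2.61 ± 0.42), and Reln, a matrix protein that lymphatic cells secrete, had 3.36, 7.78 and 15.1 CPM against 0.886 to 2.65 (median 2.13) CPM (−2.24 ± 0.36). Control 7 was the highest library in all 3 genes. The venous marker Vwf (54.5, 105 and 212 CPM against 32.3 to 72.4 with a median of 45.9 CPM, −1.42 ± 0.30) and Plvap, of fenestrated vessels (−1.07 ± 0.25), fell as 2 of 25 blood endothelial genes. Both overlapped between the diets, and Control 7 was again the highest. Without it the changes were −1.29 for Prox1 (adjusted p = 0.264), −1.80 for Mmrn1 (0.0948), −1.57 for Reln (0.0905), −0.78 for Vwf (0.247) and −0.62 for Plvap (0.288). Prox1, Vwf and Plvap had adjusted p-values of 0.0623, 0.0666 and 0.105 without Control 6.

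Progenitor genes had 4 of 23 members lower: Pdgfra, Bmper, Dcn and Vit. The median was −0.12. Pdgfra, the receptor that marks progenitors, had 102, 73.1 and 75.6 CPM against 44.3 to 67.8 (median 50.1) CPM (−0.65 ± 0.13). Dcn, the proteoglycan decorin, changed by −0.57 ± 0.10 and Vit, a matrix protein, by −0.69 ± 0.13. Without Control 3 only Bmper passed, and Pdgfra, Dcn and Vit had adjusted p-values of 0.0835, 0.0576 and 0.0604. Among 37 genes of the interstitial matrix 3 fell, 2 of them collagen VI chains. Col6a5 (ENSMUSG00000091345.9, chromosome 9, 105856078 to 105960643) had 125, 226 and 347 CPM against 32.2 to 101 (median 53.8) CPM (−2.01 ± 0.32, adjusted p = 0.0111), and Col6a6 had 72.5, 81.9 and 89.5 CPM against 33.2 to 55.5 (median 45.03) CPM (−0.86 ± 0.14). The diets did not overlap in these chains, while the median of the list was −0.09. Basement membrane had 2 of 18 genes lower, the collagen IV chain Col4a5 (−0.84 ± 0.15) and the laminin Lama2 (−0.56 ± 0.10; adjusted p without Control 3 = 0.0547). Of 19 matrix proteases and inhibitors 3 fell: the gelatinase Mmp2 (76.2, 97.3 and 82.6 CPM against 51.3 to 66.6 with a median of 55.3 CPM, −0.60 ± 0.09), its activator Mmp14 (−0.66 ± 0.10) and the inhibitor Timp2 (−0.62 ± 0.13; adjusted p without Control 3 = 0.112). Beside Bmper, of the genes named here only Mmp2 passed without Control 7. There the adjusted p-values were 0.0718 (Pdgfra), 0.0898 (Dcn), 0.13 (Vit), 0.0718 (Col6a5), 0.0737 (Col6a6), 0.12 (Col4a5), 0.0689 (Lama2), 0.0558 (Mmp14) and 0.161 (Timp2). All of them passed without Control 6.

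Further genes with large changes belong to other groups. Rasl12, a small GTPase of the Ras family, had 37.0, 51.8 and 32.7 CPM against 58.9 to 118 (median 83.4) CPM and rose by 1.11 ± 0.20. Its groups did not overlap. Cryab, a small heat shock protein, had 101, 76.3 and 61.5 CPM against 121 to 156 (median 133) CPM and rose by 0.80 ± 0.14, 1 of 15 heat shock genes. Cspg4, a proteoglycan of pericytes and some progenitors, rose by 1.05 ± 0.23, 1 of 17 genes of smooth muscle and pericytes, and Ptger3, a prostaglandin receptor that restrains lipolysis, by 0.83 ± 0.20, 1 of 26 genes of lipolysis. Their adjusted p-values without Control 3 were 0.102 and 0.119. In the cell cycle the cyclin Ccne1 rose by 0.84 ± 0.18 and the replication factor Mcm5 fell by 0.53 ± 0.12, 2 of 23 genes, with adjusted p-values of 0.0795 and 0.0651 without Control 3. Duox2, an oxidase that makes hydrogen peroxide, had 0.471, 1.01 and 2.28 CPM against 0.0857 to 0.3601 (median 0.201) CPM. Every restricted library lay under the level of the filter (0.396 CPM), so the gene was tested only through the controls, and its call is not read as a result; without Control 7 the change was −1.89 (adjusted p = 0.196). Of the 400 called genes, 3 lower ones lay under that level in every restricted library and 2 higher ones in every control. Il1rn, the antagonist of the interleukin 1 receptor, had 2.02, 1.31 and 1.08 CPM against 0.300 to 0.765 (median 0.643) CPM (−1.29 ± 0.31; adjusted p without Control 3 = 0.174). No gene of this paragraph passed without Control 7: the adjusted p-values were 0.102 (Rasl12), 0.0797 (Cryab), 0.174 (Cspg4), 0.21 (Ptger3), 0.0711 (Ccne1), 0.214 (Mcm5) and 0.122 (Il1rn). Without Control 6 Rasl12 alone of these 7 passed, and the other values were 0.0619 (Cryab), 0.0724 (Cspg4), 0.0708 (Ptger3), 0.138 (Ccne1), 0.14 (Mcm5) and 0.133 (Il1rn).

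**Figure D4:**
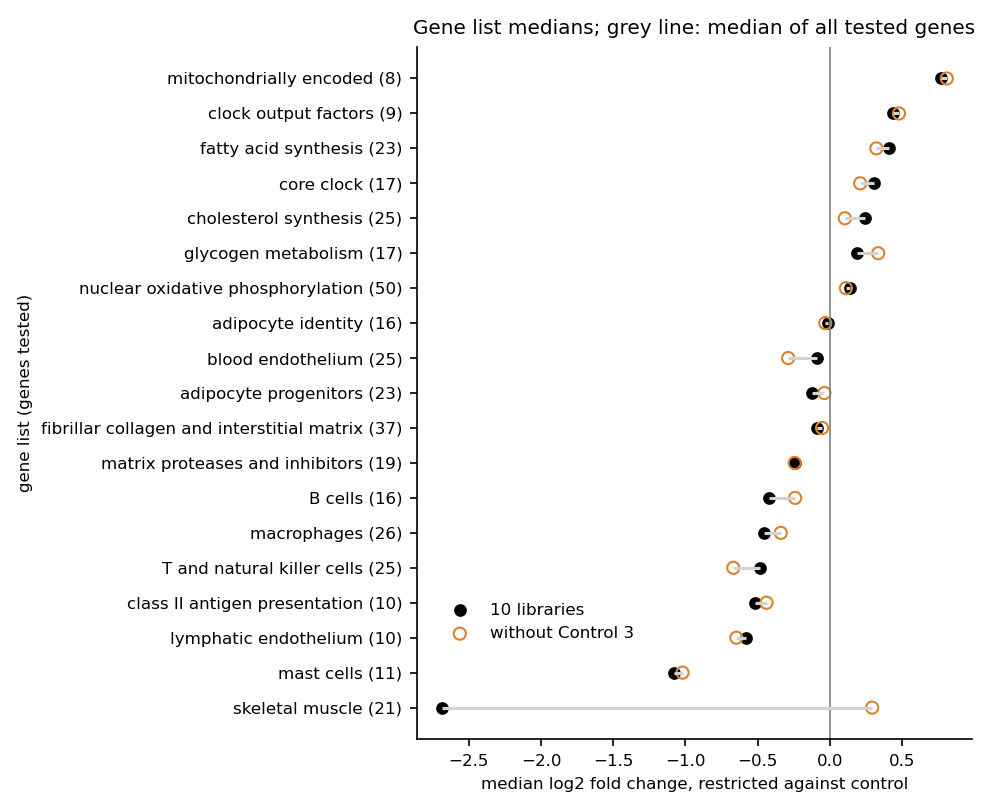
Median log2 fold change (restricted against control) of 19 gene lists with the number of genes tested; black points are the fits of all 10 libraries, open points those without Control 3, and the grey line is the median of all tested genes. The lists of immune and lymphatic cells lie to the left of the line with and without Control 3, and skeletal muscle moves from −2.69 to 0.29.

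Some of the largest falls rested on 1 or 2 controls. Skeletal muscle genes fell in 12 of 21 cases (median −2.69), and without Control 3 none passed and the median was 0.29. Myh1, a fast myosin, had 163, 0.303 and 0.348 CPM in the controls and 0.214 to 1.42 (median 0.5402) CPM in the restricted libraries. In 16 of the 270 lower genes Control 3 was more than 2 times as high as both other controls, and in 11 more than 10 times. H19, an imprinted non-coding RNA, had 12.7, 0.809 and 1.31 CPM against 0.0857 to 0.488 (median 0.260) CPM (−4.17 ± 0.67; without Control 3 −1.995, adjusted p = 0.0524). The restricted median of H19 lay under the level of the count filter (0.396 CPM). H19 passed that filter only through the controls, so its call is not read as a result. Myom2, a protein of the sarcomere, had 10.3, 1.36 and 0.503 CPM against 0.121 to 0.576 (median 0.3601) CPM (without Control 3 −1.34, adjusted p = 0.221). Cish, an inhibitor of cytokine signals, had 36.7, 5.46 and 113 CPM against 4.12 to 9.94 (median 5.28) CPM, so that Control 6 lay within the restricted range and Control 7 far above; without Control 7 its change was −1.83 (adjusted p = 0.132). Crisp1 passed through Control 6 alone, and without it its change was −0.77 (adjusted p = 0.868). No germ cell gene passed of 10 tested (1 at an unadjusted p under 0.05, 1 called by DESeq2). Prm1, Prm2 and Tnp1 did not pass the filter on low counts with 10 libraries. They entered the fit without Control 3 only through Controls 6 and 7, where they are high, so calls made there are not given as results.

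The libraries marked Yes (7 control, 3 restricted) share no library with these 10, and the same genes were measured in them. Of the 400 genes, 398 were measured there. The 130 higher genes were higher there in 126 cases, with a median of 0.36 there against 0.55 here. The 268 lower genes measured were lower there in 252 cases, with a median of −0.46 there against −0.65 here. The share of all tested genes with the same sign in both sets was not counted. The genes compared were picked because they passed here, which favours larger values here. Smaller values there are therefore not read as a weaker response. In the fit of the libraries marked Yes alone 239 of 17069 genes passed (1.4%). Of these, 76 were among the 400 with the same sign, 19% of the genes called here and 31.8% of those called there. Over 16180 genes the fold changes had a correlation of 0.32 across genes, which are not independent replicates and which within each set share their libraries. Ppp1r3b changed by 1.32 ± 0.19 there, Mcpt4 by −1.34 ± 0.18, Col6a5 by −1.70 ± 0.30 and Cd68 by −0.41 ± 0.07. Arntl changed by −0.78 ± 0.26, Ciart by 0.98 ± 0.18 and mt-Co1 by 0.41 ± 0.19, smaller values than here. Fgf13 had the larger value there, 2.26 ± 0.33. H19 (0.96 ± 1.005) and Myh1 (0.33 ± 1.27) had the opposite sign there. The test of the difference itself, the product of diet and label over all 20 libraries, called 0 of 17813 genes (0.0%) with edgeR, 1105 at an unadjusted p of 0.05, 4 with DESeq2 and 0 with limma-voom. With edgeR and limma-voom no gene was thus shown to respond differently between the labels. Which 4 genes DESeq2 called is not given here.

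**Figure D5:**
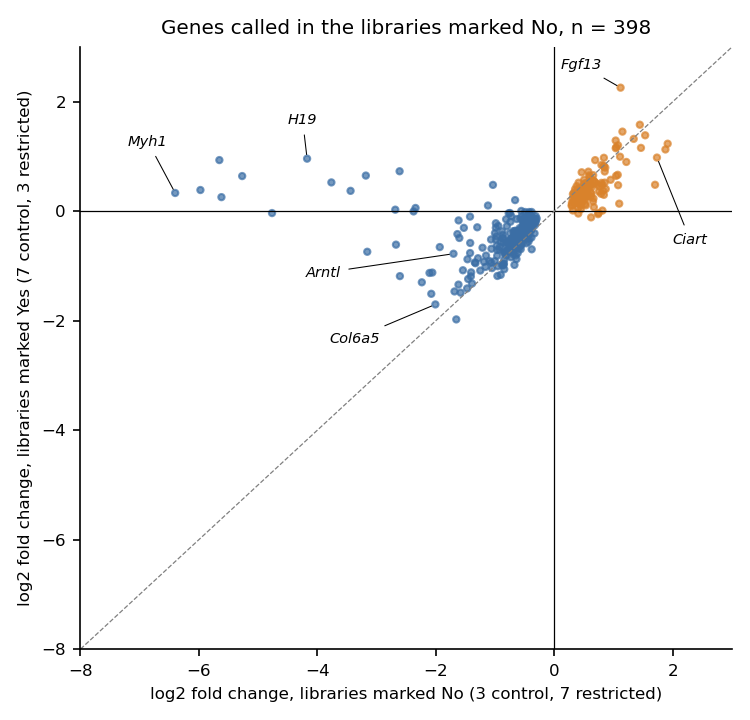
Log2 fold change of the 398 genes called in the libraries marked No (x axis) and in the libraries marked Yes (y axis), orange for genes higher and blue for genes lower under restriction; the dashed line marks equal values. Most points lie in the quadrants of equal sign, and the muscle gene Myh1 and H19 lie at strongly negative values on the x axis only.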

How the data were processed

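The authors deposited 1 table of whole-number read counts per gene, with no scaling or filter that its values show (55401 genes, 55141 with a symbol by gene identifier). Per the labels' protocols, RNA was isolated with Trizol and RNeasy, made into Universal Plus mRNA-seq libraries and read as 52-bp pairs on a NovaSeq instrument; this text names QUAD as the source, and the tissue label eWAT was used. Tools named in the submitters' processing notes, without roles, are Salmon, STAR and bcl2fastq 4.0.3, with the build GRCm38. The counter, annotation release and strand setting are not stated, so reads of overlapping or near-identical genes may be misassigned.

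Counts of the 10 libraries marked No were tested for diet with edgeR 4.0.16 (R 4.3.3): filterByExpr (minimum count 10), TMM scaling, quasi-likelihood test, two-sided, Benjamini-Hochberg adjustment over all 16584 genes at 0.05. The tested genes held at least 99.8% of each library's counts, and the biological coefficient of variation was 0.171. Libraries held 14306528 to 44061508 counts, which puts the filter's minimum of 10 counts at 0.396 CPM in the median library. SE is the absolute log2 fold change over the square root of F. The product of diet and label was tested over 20 libraries. No pair of libraries of a diet differed by less than sampling noise (lowest chi-square per degree of freedom 12.7). Alternatives were DESeq2 1.42.0, limma-voom (limma 3.58.1), RLE and upper-quartile factors, other filters, muscle, germ cell and RNA integrity terms, a term for replicate numbers above 5, a replicate block, sva 3.50.0, all 20 libraries, and each library left out. The steps were tested on simulated data. Figures used Python 3.11.15 and matplotlib 3.10.9.

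The libraries, gene lists (61) and tests were chosen with earlier results of these data known. Lists are described by counts and medians, with no list test. Genes were named by rule: among called genes of at least 1 CPM in a diet, with a proper name and outside the muscle, germ cell, gonad and epididymis lists, the 12 higher and 12 lower with the largest fold changes that kept their sign without each library; the 4 called members of each list with the smallest p, or else the member with the smallest p; and Lep, Adipoq, Ucp1, Pparg, Fasn, Scd1, Pck1, Arntl, Ciart and Dbp. Named after their values were seen were Csf1r, Itgax, Tpsab1, Bmp2, Gdf10, mt-Nd1, mt-Nd2, mt-Nd5, mt-Rnr2, Clock, Npas2, Cry1, Cry2, Per1, Per3, Nr1d1, Nr1d2, Elovl6, Acaca, Acly, Srebf1, Prm1, Prm2, Tnp1, Ckm, Foxj1, Ace, Scara5, Ap3s1, Adam8, Mme, Plpp3, Sgsm2, Fgl2, Sned1 and Cd300lb.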

Additional observations from a re-analysis of the deposited data

Results flagged for a closer look

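Single libraries stood apart among the 7 restricted libraries in 16 of 158 genes examined, where the gap to the next library took more of the range than Dixon's test allows. For normally distributed values chance flags about 1 in 20 groups (0.05). That rate need not hold for CPM at or near 0 in most libraries, as in Prm1, Ckm and Crisp1. In 9 of the 16 the library was Restricted 10, the highest each time. There Fasn, the palmitate synthase, had 21819 CPM (others 5358 to 11958), Acly, which supplies its acetyl-CoA, 1887 CPM (431 to 865), and Fdft1, of squalene synthesis, 155 CPM (93.3 to 119). Cidea, a lipid droplet protein, had 28.8 CPM there (5.996 to 15.3), Gyg, the glycogen primer, 100.3 CPM (73.7 to 83.8) and Plekhg6 27.7 CPM (9.81 to 17.5). The muscle genes Ckm (3.15 CPM, others 0 to 0.143), Tnni2 (1.73 CPM, 0.242 to 0.650) and Myh1 (1.42 CPM, 0.214 to 0.732) were highest in the same library, at levels far under those of Control 3.

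Ifi27l2a, the interferon-induced gene, had 1000.8 CPM in Restricted 4 (others 569 to 677), still below each control. Crisp1, of the epididymis, had 0.563 CPM there (0 to 0.201). Vwf, of vessel walls, had 72.4 CPM in Restricted 6 (32.3 to 49.2), and the gelatinase Mmp2 66.6 CPM (51.3 to 57.5). In Restricted 8, Ctsh, a cathepsin, had 66.9 CPM (50.5 to 57.0), the peptidase Ace 135 CPM (88.4 to 106.9) and the protamine Prm1 0.143 CPM, where the other restricted libraries had 0.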

How the results depend on the processing

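The 10 libraries gave 400 calls. DESeq2 gave 1072 (471 higher, 601 lower), limma-voom 954 (387 and 567), RLE factors 394, upper-quartile factors 411, no filter 589 and a mean of at least 1 CPM 506. The muscle index as a term gave 326 calls, of which 243 were among the 400. The germ cell index gave 53 (2 and 51), of which 29 were among the 400. With 1 surrogate variable there were 482, and with a term for replicate numbers above 5 there were 503. In the 7 libraries with an RNA integrity number 8 genes passed without that number as a term and 0 with it. These 7 leave out Control 7, Restricted 7 and Restricted 10, and without Control 7 alone 52 genes passed. The parts of the number of libraries, of the ones left out and of RNA integrity were not tested. All 20 libraries gave 2098 calls with the label as a term and 632 with its product with diet. Leaving out 1 library gave 52 (without Control 7) to 432 calls; without Restricted 4 and Restricted 5 there were 204 and 222. The replicate numbers shared by the diets are 6 and 7, with correlations of deviations of 0.24 and −0.02, so the numbers were not shown to pair libraries; the replicate block gave 864 calls (328 and 536). The difference between labels called 0 genes in every setting but DESeq2 (4).

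Signs reversed for muscle genes and Crisp1. Without Control 3 the log2 fold changes were 0.95 (Myh1), 0.38 (Myh2), 0.28 (Tnni2) and 1.003 (Ttn); the lowest values without 1 library were −6.99, −6.24, −6.20 and −5.85. The muscle term gave 0.36 (Myh1) and 0.48 (Ttn), the replicate block 0.17 (Myh1), 0.53 (Myh2) and 0.63 (Ttn), and the germ cell term 0.71 (Crisp1).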

Other observations

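In several listed groups no gene passed with edgeR. These were 23 genes of the Wnt pathway (4 at an unadjusted p under 0.05, 2 called by DESeq2), 21 adipogenic transcription factors (6 and 2), 20 genes of branched-chain amino acid breakdown (4 and 3) and 27 antioxidant genes (9 and 2). The others were 27 genes of the unfolded protein response (2 and 1) and 18 immediate early genes (3 and 1). Their medians were −0.10, −0.09, 0.09, 0.15, 0.08 and −0.25 on the log2 scale. The members with the smallest p were Lrp5, a Wnt co-receptor (−0.28 ± 0.08), Zfp423, a preadipocyte factor (−0.37 ± 0.10), Hibch, of valine breakdown (0.41 ± 0.11), Prdx2, a peroxidase (0.31 ± 0.09), Ern1, a stress sensor of the endoplasmic reticulum (−0.27 ± 0.08), and Dusp1, a phosphatase of kinases (−0.68 ± 0.21). Zbtb16, a factor induced by glucocorticoids, had 164, 151 and 137 CPM in Controls 3, 6 and 7 against 62.5 to 119.7 (median 101) CPM, without overlap (−0.65 ± 0.18, adjusted p = 0.0727 with edgeR). It had the smallest p of 16 genes of that response, of which 7 had an unadjusted p under 0.05 and DESeq2 called 6; the list's median was −0.06.

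Acvr1c, an activin receptor of adipocytes, had 165, 176 and 163 CPM in Controls 3, 6 and 7 against 91.7 to 140.3 (median 124) CPM in the restricted libraries, without overlap, and missed the threshold narrowly (−0.50 ± 0.12, adjusted p = 0.0507 with edgeR). Cidea, a lipid droplet protein, had 2.15, 2.22 and 3.596 CPM against 5.996 to 28.8 (median 7.71) CPM (adjusted p = 0.057). Mmp9, a protease of neutrophils and macrophages, had 16.8, 15.5 and 24.7 CPM against 3.34 to 13.5 (median 6.804) CPM (adjusted p = 0.0544). Neither overlapped between the diets. Sycp3, a protein of meiotic chromosomes, was higher in most restricted libraries (2.82 to 6.09 with a median of 4.35 CPM) than in Controls 3, 6 and 7 (2.42, 2.83 and 2.398 CPM; 0.82 ± 0.24, adjusted p = 0.0868), while the protamines Prm1 and Prm2 were highest in Controls 6 and 7. Igfbp2, on the list of mesothelium, had 19.2, 6.42 and 5.11 CPM in the controls and 5.83 to 38.8 (median 22.99) CPM in the restricted libraries; Control 3 lay below the median of the latter.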
